A study of Mus musculus with 4 samples.

Results

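The genes described here are 7 of the 383 genes of a MERFISH panel that code for proteins of the synapse: Syp, Cplx2, Rims2, Nsg2, Grin2b, Grm5 and Htr2c. They were taken by name, as columns of the per-section tables, with earlier results of these data known. MERFISH (multiplexed error-robust fluorescence in situ hybridization) images single transcripts in tissue and assigns them to segmented cells. The panel was applied to 4 coronal brain sections at the level of the striatum from mice, 2 sections labelled Young (2 months) and 2 labelled Aged (18 months). The methods name wild-type C57BL/6NTac mice and the reporting summary both sexes in alternating batches, neither tied to these sections, and the labels name no treatment and give neither sex nor animal for a section. The p-values therefore measure only the spread between these sections.

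Transmitter release depends on vesicles that are filled, brought to the active zone, and held ready there until calcium triggers fusion. The released transmitter then acts on receptors, which are either channels, such as the NMDA receptor, or receptors coupled to G proteins, such as the metabotropic glutamate and most serotonin receptors. The medium spiny neuron (MSN) is the GABAergic projection neuron of the striatum, and its main forms carry the dopamine receptor Drd1 (the direct pathway) or Drd2 (the indirect pathway). Messenger RNA lies mostly in the cell body, but a part of it is carried into dendrites and axons, which run among the glial cells.

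After cells with fewer than 10 detected genes or under 50 µm³ were left out, 68011 to 74624 cells remained per section, with 18765491 to 36035355 transcripts in all and a median of 215 to 400 transcripts per cell. Aged replicate 1 was the shallowest section and Young replicate 1 the deepest. Cells were clustered without the 7 genes, and classes were named from markers. The MSN-like class had 8 of 8 MSN markers at least 1.5-fold above the remaining cells (median 10.6-fold), and the GABA neuron-like class had 4 of 5 of its markers, and also 3 MSN markers, above the remaining neurons outside the MSN-like class. The remaining neurons are called other neuron-like, and only 24 to 36 of them per section lay in the outlined striatum, so they are mostly cells of the cortex and other surrounding regions. Most GABA neuron-like cells lay outside it too, with 866 of 6507, 643 of 7094, 707 of 5954 and 739 of 7328 inside in Young 1, Young 2, Aged 1 and Aged 2. In Young replicate 1, 268 cells fell into a neuron subcluster led by Rorb, a gene of cortical layer neurons, against 2042 to 2502 in the other 3 sections. The make-up of the other neuron-like class differed in more than this, since Crym-led cells were 50.2% and 34.8% of it in the Young and 15.3% and 30.8% in the Aged sections, and Ahnak-led cells 30.7% in Aged 1 against 14.8% to 17.5% elsewhere. Cells with many markers of a second class (mixed cells) were left out unless stated. They were 1.37% to 2.86% of the neuron classes per section, 5.92% to 6.86% of astrocyte-like cells and 20.4% to 33.8% of the other glial and vascular classes. Syp in oligodendrocyte-like cells, for example, had 75.9 to 88.2 with them and 34.0 to 47.0 without. Before this step, subclusters led by Gja1, Adgrl4 or Gpr17, genes of glia or vessels, each made up 1.88% to 4.48% of the other neuron-like class. A level is given as transcripts of a gene per 10000 transcripts of all panel genes, with all cells of a class in one section pooled, in the order Young 1, Young 2, Aged 1, Aged 2.

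Syp (chrX:7638580-7653256; this and the following positions are on GRCm38.p6, from RefSeq) codes for synaptophysin, an abundant membrane protein of the synaptic vesicle. Its level in other neuron-like cells was 361, 353, 322 and 354. In GABA neuron-like cells it was 303, 319, 271 and 301, and in MSN-like cells 79.5, 76.4, 77.4 and 85.7. The 3 neuron classes did not overlap between sections, and MSN-like cells lay close to the highest glial class, microglia-like cells, at 57.3 to 72.3. With mixed cells kept this order turned, with 106 to 137 in microglia-like and 88.7 to 100.5 in OPC-like against 76.1 to 85.5 in MSN-like cells. Cplx2 (chr13:54301964-54383923) codes for complexin 2, which binds the SNARE complex and controls vesicle fusion. It had 209, 198, 249 and 249.5 in other neuron-like cells and 171, 189, 193 and 189.9 in MSN-like cells. GABA neuron-like cells had 104, 109.6, 135 and 135, in every section less than the microglia-like, OPC-like and astrocyte-like cells. Astrocyte-like cells, for example, had 112, 118, 146 and 149. With mixed cells kept, OPC-like cells of Aged 2 had 132 and GABA neuron-like cells 135. Rims2 (chr15:39198286-39684372) codes for a scaffold protein of the presynaptic active zone. Its levels ran from 37.2 to 55.9 over the 3 neuron classes, which overlapped, and were 31.4 to 36.1 in OPC-like cells, the oligodendrocyte precursors.

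**Figure D1:**
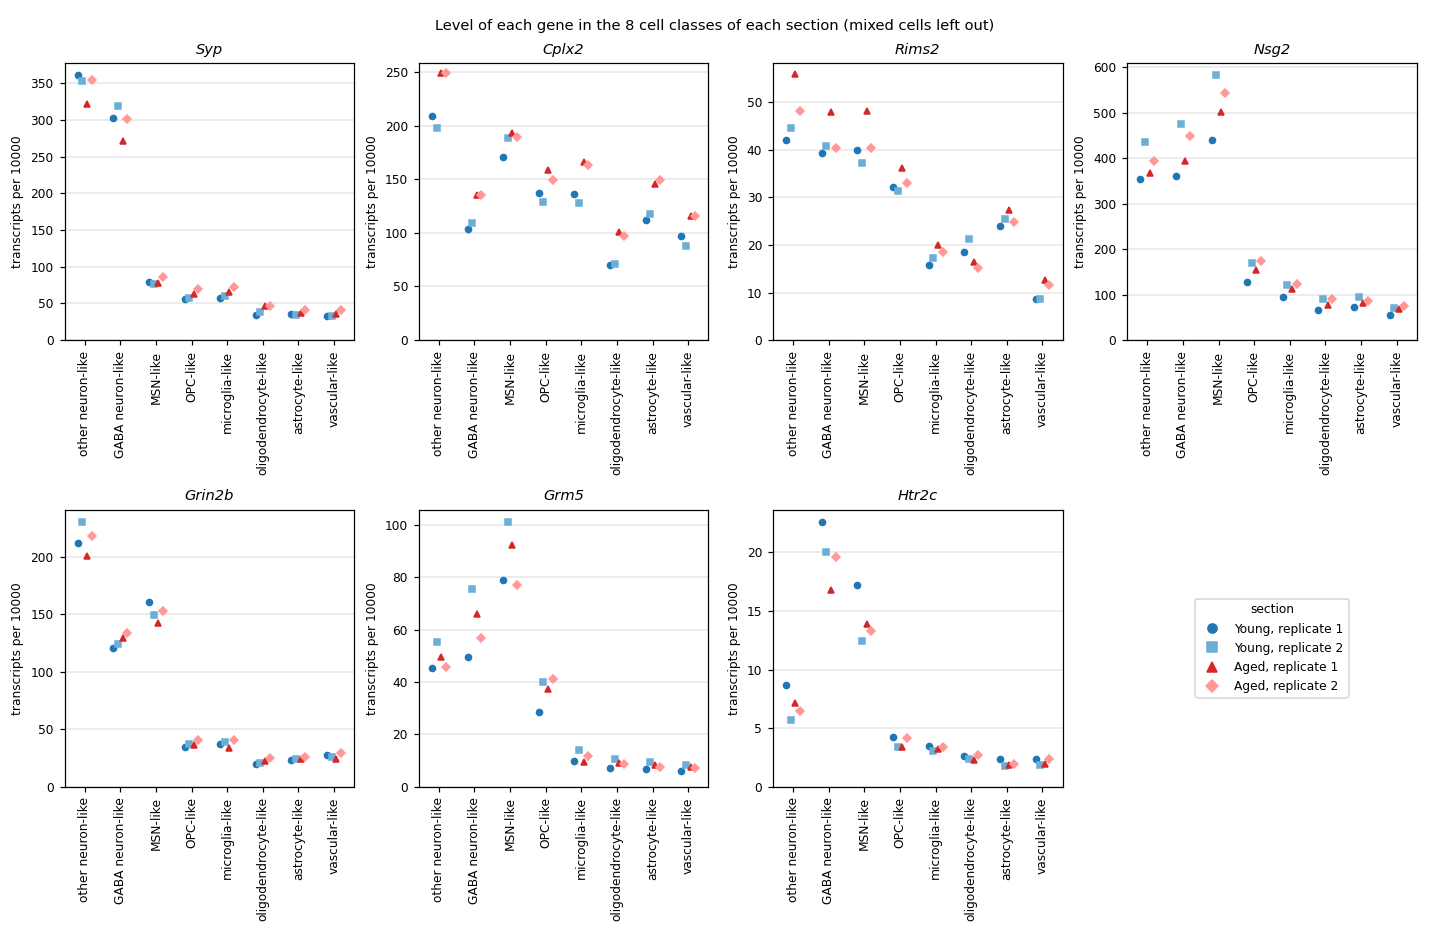
Transcripts per 10000 (vertical axis, from 0) of each of the 7 genes in the 8 cell classes (horizontal axis), with 1 point for each of the 4 sections and mixed cells left out. Syp separates other and GABA neuron-like cells (271 to 361) from MSN-like cells (76.4 to 85.7), while Nsg2 and Grm5 are highest in MSN-like cells and Htr2c in GABA neuron-like cells.

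The other 4 genes act mainly on the receiving side. Nsg2 (chr11:31999704-32059211) codes for a neuron-specific protein of endosomes that takes part in receptor trafficking. It was highest in MSN-like cells, at 439.9, 583, 501 and 544, a range that overlapped with the 361 to 475 of GABA neuron-like cells. The highest non-neuronal class, OPC-like cells, had 127 to 174. Grin2b (chr6:135713221-136173615) codes for the GluN2B subunit of the NMDA receptor and was highest in other neuron-like cells, at 212, 230.4, 201 and 218. MSN-like cells had 142 to 160.3 of it and GABA neuron-like cells 120.3 to 134, with no overlap between the neuron classes. Grm5 (chr7:87583981-88135063) codes for the metabotropic glutamate receptor mGluR5. It was highest in MSN-like cells, at 78.8, 101, 92.3 and 77.1. OPC-like cells, at 28.4 to 41.0, stood between the neurons and all other glia, which had at most 13.9. With mixed cells kept, OPC-like cells had 36.3 to 50.3, a range that overlapped with the 45.2 to 55.2 of other neuron-like cells. They stayed below these within every section, and microglia-like cells reached 26.3. Htr2c (chrX:146962464-147197277) codes for the serotonin receptor 2C. It was highest in GABA neuron-like cells, at 16.8 to 22.6 with a median of 19.8, against 17.2, 12.4, 13.9 and 13.3 in MSN-like cells. These ranges touched, although GABA neuron-like cells were higher within every section. For 7 of 7 genes the class with the highest level was the same in all 4 sections, both per 10000 transcripts and per cell volume. From the microglia-like class down, the range of each class overlapped with that of the next in order for Cplx2, Grm5 and Nsg2.

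Between classes of the same sections, Syp was 3.79 times as high in other neuron-like as in MSN-like cells (log2 difference 1.92 ± 0.07 SE, n = 4 sections, edgeR adjusted p = 2.35e-09). Grin2b was also higher there, by 0.31 ± 0.07. Grm5 was lower by 1.03 on the log2 scale, Htr2c by 1.23 and Nsg2 by 0.61. Cplx2 (0.08 ± 0.07, edgeR adjusted p = 0.294) and Rims2 (adjusted p = 0.963) did not pass. Of all genes tested, 76.2% were called in this comparison, so that 5 of 7 is no more than the panel at large. Against GABA neuron-like cells all 7 genes were called, as were 81.7% of the panel. Syp was higher there than in MSN-like cells (1.65 ± 0.06) and Htr2c slightly (0.22 ± 0.07, edgeR adjusted p = 0.0123). Cplx2 was lower by 0.88, Grm5 by 0.76, Nsg2 by 0.56, Grin2b by 0.51 and Rims2 by 0.23 on the log2 scale. The call of Htr2c was lost without Young replicate 2 (0.14, adjusted p = 0.0946) or Aged replicate 2 (0.21, adjusted p = 0.0714). With TMM the median gene was at -0.00 for other neuron-like cells and at 0.01 for GABA neuron-like cells. With scaling by total transcripts or by cell volume instead, it was at 0.20 and 0.32 for the former and at 0.27 and 0.34 for the latter. Under both, Rims2 turned to 0.20 and 0.32 in the first comparison, where both values passed the test, and to 0.03 and 0.10 in the second, and Cplx2 reached 0.28 and 0.40 in the first. In the first comparison these Rims2 values equal those of the median gene, and the Cplx2 values lie above them by 0.08.

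Of 30 other synaptic genes of the panel, 12 were higher and 18 lower in other neuron-like than in MSN-like cells. The receptors and postsynaptic signalling genes were lower in 11 of 12 cases, with a median of -1.95, led by Drd2 (-7.09) and Rgs9 (-5.16), a regulator of G protein signalling of striatal neurons. Both are among the markers that named the MSN-like class. Adhesion genes were higher in 5 of 6 cases, led among all 30 by Ptprd (1.91), a receptor phosphatase of synapses, before Atp2b2 (1.28), a calcium pump. In GABA neuron-like cells 11 of the 30 were higher than in MSN-like cells and 17 lower. The highest were Clstn3 (1.08), a synaptic adhesion protein, and Gng3 (1.07), a G protein subunit, and the lowest Rgs9 (-4.56) and Pde10a (-4.22), a striatal phosphodiesterase, both again MSN markers. The 30 genes took part in the clustering that made the classes, so these values describe the classes and are no independent finding.

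Within the neurons the 7 genes divided the subclusters differently. Among 14 groups of neurons (12 subclusters, each called by its leading gene, and the MSN-like cells with more Drd1 or more Drd2 transcripts), some were led by glial or vascular genes (Cldn11, Gja1, Gpr17 and Adgrl4). Syp was highest in the Foxo1-led group at 402 to 455 and lowest in the Drd2-higher MSN-like cells at 55.3 to 63.9. Every subcluster outside the MSN-like class had at least 209.8 of it, above the Drd1-higher cells at 83.1 to 95.6. Cplx2 was lowest in the Ano1-led (72.4 to 129.7), Dlx6os1-led (111 to 138) and Rorb-led (80.3 to 181) groups, of which the first 2 lie in the GABA neuron-like class. Rims2 was highest in the Rorb-led group, at 63.3 to 79.5, where no other group exceeded 59.6. Grin2b was highest in the Calb1-led group at 284 to 313, apart from all others. Calb1 codes for the calcium-binding protein calbindin. The Ano1-led subcluster, which fell into the GABA neuron-like class, had 2 GABA neuron markers and, like the Dlx6os1-led one, 3 MSN markers at least 1.5-fold above the other neurons outside the MSN-like class, and Drd2 was its second leading gene. It had the most Grm5, at 97.8, 171, 145 and 125, and the most Nsg2, at 495 to 687. Both ranges overlapped with those of the MSN-like groups. Htr2c was high in the Foxo1-led group, at 33.6, 25.8, 26.9 and 26.6, and in the Ano1-led group, at 21.6 to 28.0. It was lowest in the Rorb-led group, at 1.45 to 2.73, and the Calb1-led group, at 1.96 to 3.78.

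**Figure D2:**
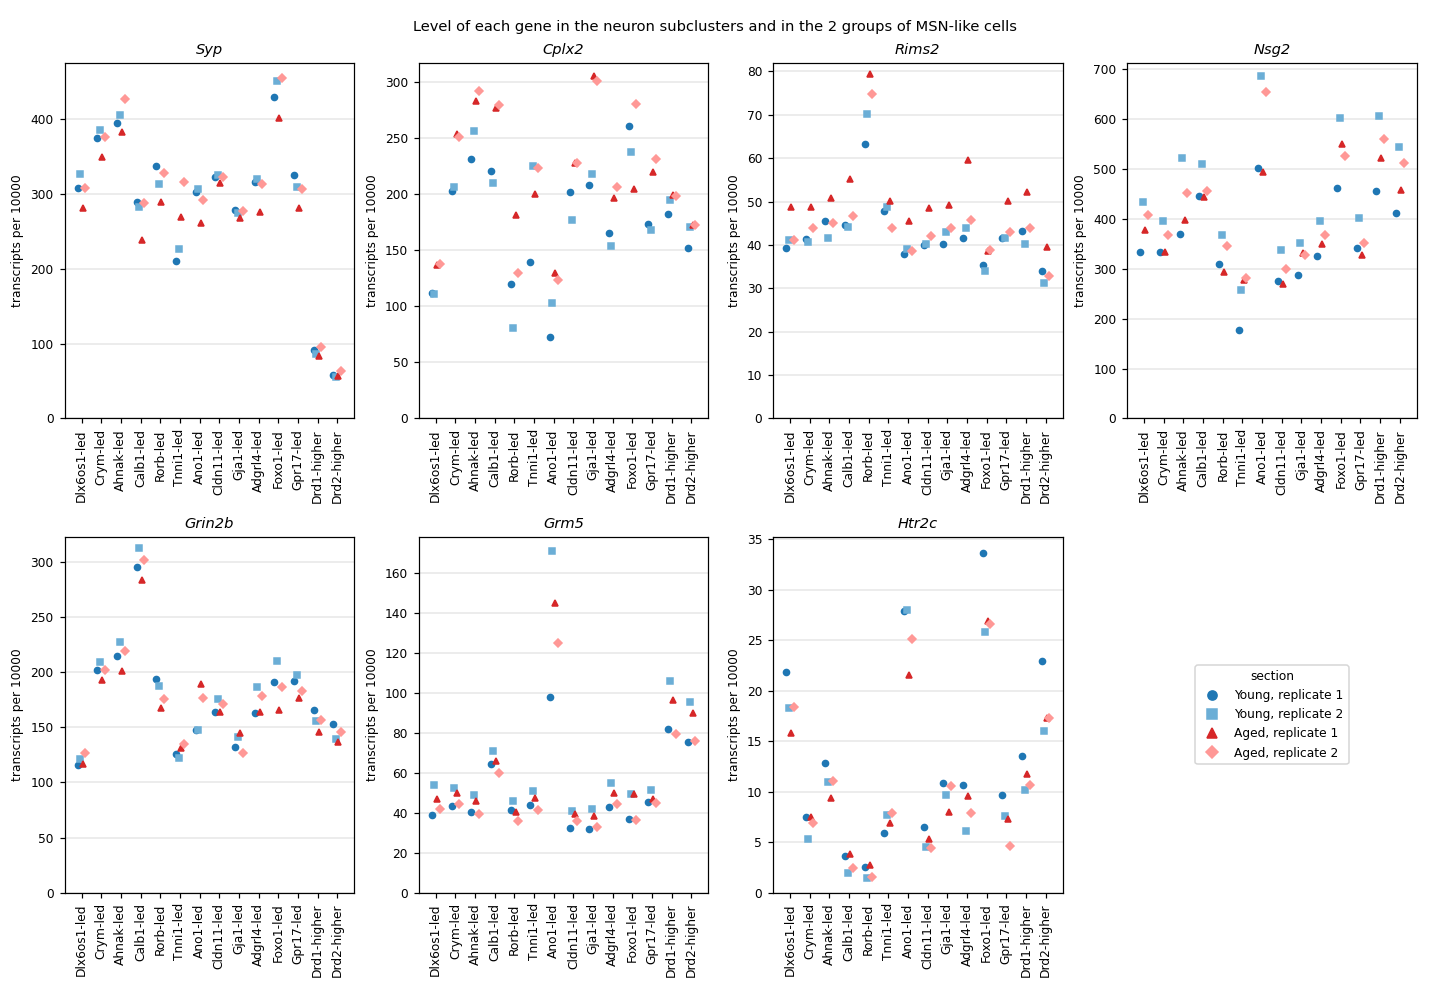
Transcripts per 10000 (vertical axis, from 0) of each gene in 12 neuron subclusters and in the Drd1-higher and Drd2-higher MSN-like cells (horizontal axis), with 1 point per section. Syp is lowest in both MSN-like groups, Rims2 highest in the Rorb-led, Grin2b in the Calb1-led and Grm5 in the Ano1-led group, and Htr2c ranges from 1.45 in the Rorb-led to 33.6 in the Foxo1-led group.

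The genes most like each of the 7 over these 14 groups were found by Pearson's r of log2 levels within a section, given here as the mean over 4 sections, as a description of groups that share libraries. Syp went with Stmn2 (0.980), Map1b (0.930) and Gng3 (0.906), and Grm5 with Meis2 (0.880), Tmem158 (0.871) and Ptpn5 (0.857). Cplx2 was closest to Ctxn1 (0.842), then Cdkn1a (0.796) and Ptgs2 (0.731). For Grin2b these were Tspan13 (0.799), Pcsk2 (0.734) and Brinp1 (0.724), and for Htr2c they were Blcap (0.738), Pcp4l1 (0.649) and Gap43 (0.624). Rims2 had its nearest genes in Rorb (0.710), Atp2b2 (0.669) and Foxo3 (0.664). Nsg2 followed Plppr4 (0.704), Grm5 (0.694) and Pf4 (0.658). Grm5 was the only one of the 7 among the nearest genes of another.

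The MSN-like cells were then split by whether they held more Drd1 or more Drd2 transcripts. Cells with equal numbers, 2059, 2862, 4470 and 3269 of them, were left out, most in the shallowest section. Syp was higher in the Drd1-higher cells, at 91.0, 86.6, 83.1 and 95.6 against 58.7, 55.3, 56.7 and 63.9 (0.53 ± 0.02, edgeR adjusted p = 3.13e-08). Htr2c was higher in the Drd2-higher cells, at 22.9, 16.0, 17.3 and 17.3 against 13.5, 10.2, 11.7 and 10.7 (-0.74 ± 0.04, edgeR adjusted p = 1.43e-07). For neither gene did the groups overlap. Rims2 was higher in Drd1-higher cells by 0.31 ± 0.03, with 40.1 to 52.1 against 31.3 to 39.5. Cplx2 (0.15 ± 0.02) and Nsg2 (0.09 ± 0.02) were called with smaller differences, while Grin2b (0.05 ± 0.02, edgeR adjusted p = 0.0539) and Grm5 (0.04 ± 0.02, adjusted p = 0.103) were not. The 2 receptor genes passed under other settings: Grin2b reached 0.12 and Grm5 0.11 with scaling by total transcripts, which moved the median gene from -0.01 to 0.05, DESeq2 called both (0.07 and 0.06), and Grin2b passed without Aged replicate 1 (0.05, adjusted p = 0.0299). In this comparison 63.2% of all genes were called, with a median absolute difference of 0.16. Of the 30 other synaptic genes 15 were higher and 12 lower in Drd1-higher cells. These counts include Drd1 and Drd2, whose difference was set by the split itself and is no finding. Apart from them, the higher genes, among them all 6 adhesion genes, were led by Cntn1 (0.27) and Gad2 (0.26), which makes GABA. Gpr6 (-2.12), a receptor of indirect pathway neurons, and Kcnk1 (-0.42), a potassium channel, led the lower ones apart from Drd2.

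The MSN-like cells were next compared by position. The striatum was outlined from the density of MSN-like cells and each hemisphere was parted at the middle of its dorsal-ventral extent, which gave 5663 to 7204 dorsal and 6171 to 8178 ventral MSN-like cells per section. Syp was at 44.4, 41.6, 45.2 and 50.5 in the dorsal zone and at 101, 90.9, 86.8 and 106 in the ventral zone (dorsal against ventral -1.01 ± 0.05, edgeR adjusted p = 4.47e-07). Htr2c was at 13.5, 9.78, 9.64 and 10.8 dorsally and at 22.3, 15.8, 18.5 and 17.2 ventrally (-0.68 ± 0.07, edgeR adjusted p = 6.68e-05). Rims2 was at 30.8, 27.6, 40.1 and 30.5 dorsally and at 44.6, 38.3, 52.8 and 42.5 ventrally (-0.39 ± 0.04, edgeR adjusted p = 8.81e-05). All 3 were higher ventrally in every section, with zones that overlapped only for Rims2, through the high values of Aged replicate 1. Each was also higher ventrally in both hemispheres of every section. Syp was at 38.2 to 52.8 and 43.3 to 49.5 in the dorsal zones of the 2 hemispheres and at 74.7 to 103 and 93.9 to 111 in their ventral zones, and the widest gap between hemispheres was in the ventral zone of Young 2 (74.7 and 107). Cplx2 was slightly higher dorsally (0.15 ± 0.05, edgeR adjusted p = 0.0248). The hemispheres differed in this: in the first, Cplx2 was higher dorsally only in Aged 1 (209 against 180.3), and in the second in all sections but Young 2 (174 against 184). That call was lost without Young replicate 1 (0.15, adjusted p = 0.117), without Aged replicate 2 (0.13, adjusted p = 0.0936) and with scaling by total transcripts (0.07, adjusted p = 0.269). Nsg2 (-0.14 ± 0.06, edgeR adjusted p = 0.0897), Grin2b (0.01 ± 0.04) and Grm5 (-0.02 ± 0.06) did not pass. Nsg2 did pass with scaling by total transcripts (-0.22, adjusted p = 0.00321), which moved the median gene from 0.01 to -0.07, and by cell volume (-0.18, adjusted p = 0.0494). Of all genes 41.8% were called, against 4 of the 7, with a median absolute difference of 0.18.

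**Figure D3:**
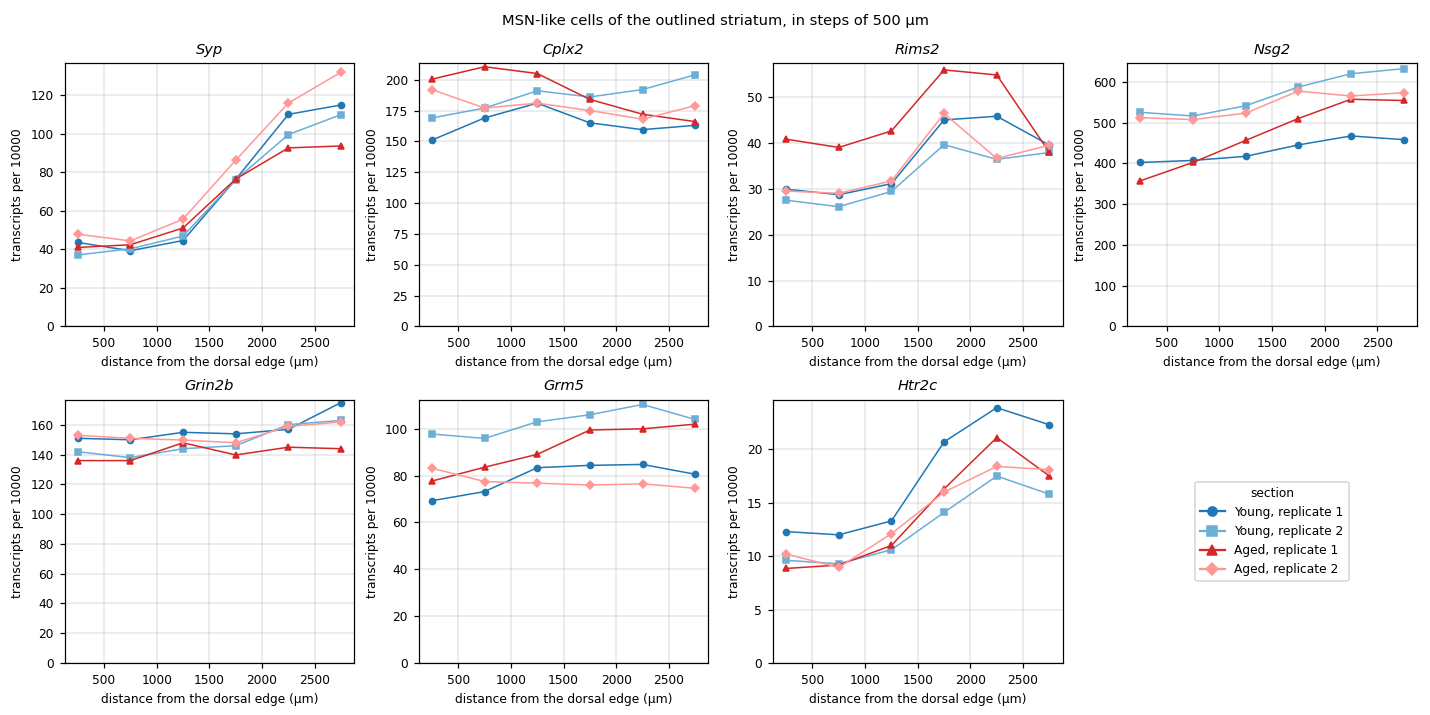
Transcripts per 10000 (vertical axis, from 0) of each gene in MSN-like cells of the striatum, in steps of 500 µm from the dorsal edge (horizontal axis, µm), with 1 line per section. Syp rises from 37.1 to 47.9 in the first step to 93.7 to 132 in the last, and Htr2c and Rims2 step up beyond 1500 µm. Grin2b lies between 136 and 175, slightly higher in the last step than in the first in every section.

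In steps of 500 µm from the dorsal edge, Syp in MSN-like cells was flat over the first 1000 µm (37.1 to 47.9), at 44.6 to 55.7 in the third step and at 76.1 to 86.3 in the fourth. It reached 92.7 to 116 in the fifth step and 93.7 to 132 in the last, from 2500 to 3000 µm, which held 1014 to 1854 cells per section. Htr2c was at 8.85 to 12.3 in the first step, 10.6 to 13.3 in the third and 14.1 to 20.7 in the fourth, and was highest at 17.5 to 23.9 between 2000 and 2500 µm. Rims2 went from 29.4 to 42.6 in the third step to 39.6 to 55.9 in the fourth and came back to 37.9 to 39.5 in the last. The step between 1500 and 2000 µm was thus shared by these 3 genes in all 4 sections. Nsg2 went from 357 to 525 in the first step to 458 to 632 in the last, with ranges that overlapped, while Grin2b lay between 136 and 175 throughout. Syp also differed by zone outside the MSN-like cells, where astrocyte-like cells had 10.3 to 13.7 dorsally and 16.0 to 19.5 ventrally, and oligodendrocyte-like cells 19.5 to 24.5 and 33.1 to 43.4. In GABA neuron-like cells of the striatum the order was the opposite, with Syp at 259 to 310.0 dorsally and 206 to 272 ventrally. Htr2c in the same cells was at 11.9, 9.30, 9.72 and 18.3 dorsally and at up to 24.0 ventrally, higher ventrally in every section as in MSN-like cells. These class values were not tested. Stmn2 (-0.22 ± 0.06, edgeR adjusted p = 0.0119) and Gng3 (-0.26 ± 0.06, adjusted p = 0.00781), 2 of 5 reference neuronal genes, were also lower in dorsal MSN-like cells, by less than Syp. Of the 30 other synaptic genes 14 were higher dorsally and 7 lower, with Rgs4 (1.14), a regulator of G protein signalling, and Scn4b (1.10), a sodium channel subunit, first among those higher and Gad2 (-0.61) and Oprm1 (-0.56), the µ opioid receptor, first among those lower. By list, release and vesicle genes were higher dorsally in 1 and lower in 3 of 6 cases, receptors and postsynaptic signalling genes higher in 8 and lower in 1 of 12, adhesion genes lower in 3 of 6, and ion channels and pumps higher in 5 of 6.

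Since Syp and Htr2c moved together along this axis, the sequences around their start sites are shown, from 250 bases before to 50 bases after the start (RefSeq, GRCm38.p6, plus strand). The start used is that of the promoter table, which for Syp is the gene start given above and for Htr2c lies inside the gene, downstream of it. Entries were found for 4 of the 7 genes, and Rims2 is not among them. Capitals mark the GC box (GGGCGG, or CCGCCC on the other strand) and the CCAAT box (CCAAT or ATTGG). TGACGTCA, the cyclic AMP response element, was searched as well.
Syp, chrX:7638330-7638629: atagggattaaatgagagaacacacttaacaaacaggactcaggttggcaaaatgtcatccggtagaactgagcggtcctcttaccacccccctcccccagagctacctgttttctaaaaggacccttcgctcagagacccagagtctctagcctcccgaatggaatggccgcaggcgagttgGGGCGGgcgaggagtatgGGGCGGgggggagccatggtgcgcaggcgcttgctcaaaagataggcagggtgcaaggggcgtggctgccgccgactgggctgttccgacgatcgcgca
Htr2c, chrX:146962263-146962562: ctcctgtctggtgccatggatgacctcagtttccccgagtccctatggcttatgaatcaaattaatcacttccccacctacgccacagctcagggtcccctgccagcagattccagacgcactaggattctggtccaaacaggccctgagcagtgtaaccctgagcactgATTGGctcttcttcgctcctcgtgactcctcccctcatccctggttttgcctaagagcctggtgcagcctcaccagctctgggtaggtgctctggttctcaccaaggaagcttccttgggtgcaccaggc
The Syp window holds 2 GC boxes and no CCAAT box, and the Htr2c window 1 CCAAT box and no GC box, so they share none of these motifs. TGACGTCA is in neither. Over 32851 promoters of the same length, 35.7% held a GC box, 37.4% a CCAAT box and 1.79% the cyclic AMP response element. The GC content was 59.0% for Syp and 56.3% for Htr2c. No measurement here bears on binding at these sites.

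Whether the dorsal-ventral differences of the 2 Drd groups differed was tested after the levels had been seen. Htr2c in Drd2-higher cells was at 14.8, 10.4, 10.3 and 12.7 dorsally and at 22.2 to 32.6 ventrally, the highest value being that of Young 1. In Drd1-higher cells it was at 12.4, 9.32, 9.21 and 9.25 dorsally and at 16.1, 11.7, 14.8 and 13.4 ventrally. The ventral excess was larger in Drd2-higher cells by 0.68 ± 0.11 on the log2 scale (edgeR adjusted p = 2.54e-04), and ventral Drd2-higher cells stood apart from the other 3 groups in every section. For Rims2 the ventral excess was smaller in Drd2-higher cells (-0.26 ± 0.06, edgeR adjusted p = 0.0106), with 34.3 to 40.9 ventrally against 40.7 to 57.9 in Drd1-higher cells. This call was lost without Young replicate 1 (-0.27, adjusted p = 0.111) or Aged replicate 2 (-0.26, adjusted p = 0.178). Syp was at 48.1, 45.1, 46.9 and 54.9 dorsally and 116, 105, 95.5 and 118 ventrally in Drd1-higher cells. In Drd2-higher cells it was at 38.2, 35.9, 40.4 and 43.8 dorsally and 74.7, 66.2, 66.3 and 83.3 ventrally. It was thus higher ventrally in both groups and higher in Drd1-higher cells in both zones. The difference between the groups missed the threshold (-0.21 ± 0.07, edgeR adjusted p = 0.0578), which it passed without Aged replicate 1 (-0.24, adjusted p = 0.0342). Of all genes 8.09% were called, 31 in number, and 10, 20 and 11 without Young replicate 1, Young replicate 2 and Aged replicate 2. Of the 30 other synaptic genes 6 were called, all with a positive difference, Scn4b (0.37) and Arpp21 (0.25) foremost. Drd1 and Drd2, which set the groups, are among the 30.

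All 7 genes gave transcripts in cells of the glial and vascular classes. To set these traces against a measure of neuronal transcripts in general, the level in each class of the outlined striatum was divided by that in its MSN-like cells, for the 7 genes and for 5 reference neuronal genes (Stmn2, Snhg11, Eno2, Ndrg4 and Gng3), with mixed cells kept. In astrocyte-like cells Cplx2 had a ratio of 0.678, 0.751, 0.748 and 0.665, and Rims2 one of 0.631, 0.789, 0.548 and 0.638. Both lay above all 5 reference genes in all 4 sections, whose ratios ran from 0.0238 to 0.545. The other 5 genes were within the reference range, Syp at 0.224 to 0.242, Nsg2 at 0.182 to 0.210, Htr2c at 0.135 to 0.181, Grin2b at 0.141 to 0.155 and Grm5 at 0.129 or less. In no other class did a gene lie above all 5 references in every section, but the ratios were not lower in all of them. In OPC-like cells Cplx2 was at 0.735 to 0.773 and Rims2 at 0.840 to 1.07, with Gng3 the highest reference at 1.55 to 1.86. In oligodendrocyte-like cells the 2 genes were at 0.687 to 0.794 and 0.576 to 0.723, with Stmn2 the highest at 0.979 to 1.27. Cplx2 was at 0.605 to 0.675 in microglia-like and 0.553 to 0.615 in vascular-like cells, and Rims2 at most 0.557 there. Grin2b in OPC-like cells, at 0.518 to 0.573, and Grm5 and Htr2c in oligodendrocyte-like cells lay below all 5. With mixed cells left out, Cplx2 was above the references in microglia-like and oligodendrocyte-like cells as well, but the reference genes take part in the rule for mixed cells. Their median ratios were lower with that rule in these 2 classes. With mixed cells kept, the benchmark is not independent of the classes either. The reference genes, unlike the 7, took part in the clustering and are among the neuron markers that named the classes. How far this lowered their ratios in glia was not tested.

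**Figure D4:**
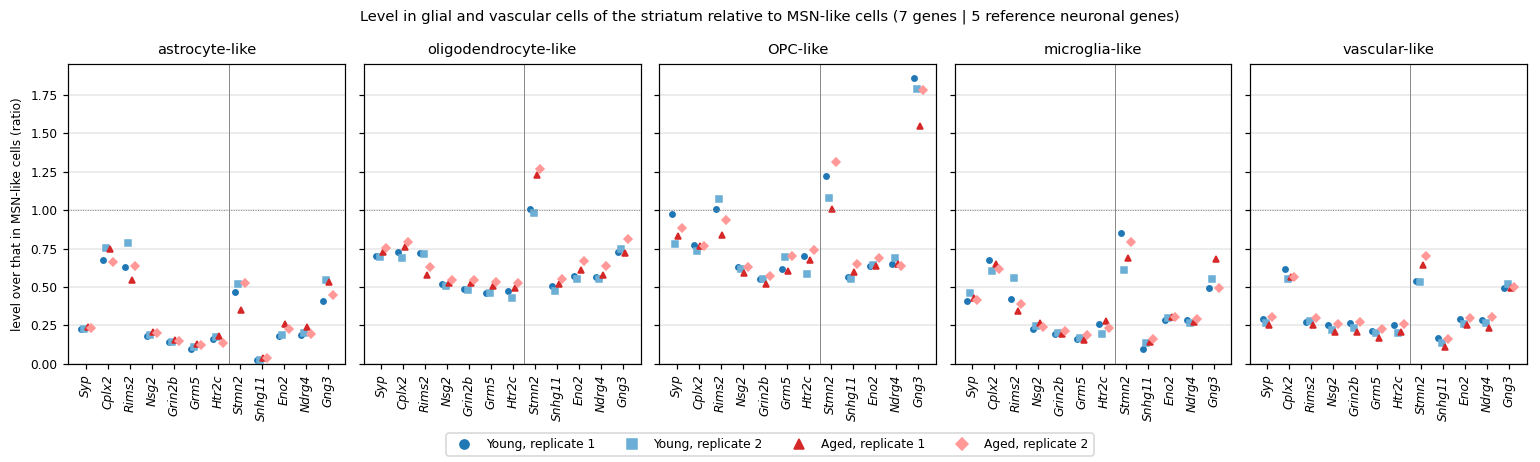
Ratio of the level in each glial or vascular class to that in MSN-like cells of the same section's striatum (vertical axis, from 0, with a dotted line at 1) for the 7 genes, left of the grey line, and 5 reference neuronal genes, right of it, with mixed cells kept and 1 point per section. In astrocyte-like cells Cplx2 (0.665 to 0.751) and Rims2 (0.548 to 0.789) lie above all reference genes, which is seen in none of the other 4 classes. The ratios themselves are not lower in OPC-like cells (Cplx2 0.735 to 0.773, Rims2 0.840 to 1.07), where the highest reference gene is at 1.55 to 1.86.

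The traces were then compared between oligodendrocyte-like cells of white matter (squares with at least 40% oligodendrocyte-like cells within 150 µm) and of grey matter, again with mixed cells kept. All 7 genes were lower in white matter. Cplx2 fell from 101, 101, 140.3 and 134 in grey matter to 12.8, 7.76, 16.7 and 15.9 (-2.91 ± 0.14, edgeR adjusted p = 2.83e-06). Grm5 (-3.52 ± 0.13) and Htr2c (-3.51 ± 0.14) fell most, Nsg2 by 2.88, Grin2b by 2.84 and Syp by 2.39 on the log2 scale. Rims2 was the exception in size, at 26.5, 25.3, 27.3 and 24.7 in grey and 15.5, 19.9, 9.88 and 8.89 in white matter (-0.72 ± 0.19, edgeR adjusted p = 0.0118). Its call was lost without Aged replicate 1 (-0.60, adjusted p = 0.0508) or Aged replicate 2 (-0.58, adjusted p = 0.0788), and in white matter its Aged sections lay below its Young ones. Of all genes 66.6% were called with a median of 0.01, against a median of -2.88 for the 7, and the 5 reference genes fell by 1.59 to 3.44. Of the 30 other synaptic genes 26 were lower and 3 higher, with Drd1 (-4.26) and Rgs4 (-3.90) foremost among the former and Ptprd (1.02) and Sez6l2 (0.61) among the latter. With scaling by total transcripts or cell volume the median gene moved from 0.01 to -0.28 and -0.67 in this comparison.

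In the other glial classes the levels by matter are given without a test. Cplx2 in astrocyte-like cells was at 115, 121, 153 and 155 in grey and 18.9, 18.1, 31.4 and 27.7 in white matter. Rims2 there was at 24.4 to 28.7 and 11.6 to 18.6. In OPC-like cells Rims2 had 34.6 to 38.9 in grey matter and 57.3, 31.5, 27.4 and 20.7 in white matter, where the ranges overlap, and Cplx2 fell from 123 to 148 to 9.22 to 20.5. Grm5 in white matter was at 12.4 to 32.4 in OPC-like cells but at 1.64 to 2.60 in oligodendrocyte-like cells. The white matter values of OPC-like cells rest on 71 to 319 transcripts of Rims2 and 52 to 144 of Grm5 per section. The levels by the share of neurons among the cells within 50 µm are given for Cplx2. With under 25% neurons around them, astrocyte-like cells had 93.0, 85.1, 119 and 159, and with at least 75% they had 128, 129.6, 157 and 144, which is higher in 3 sections and lower in Aged 2. Oligodendrocyte-like cells had 27.3, 21.2, 35.6 and 34.5 and then 125, 127, 165 and 158. Rims2 in astrocyte-like cells went from 17.8 to 18.6 to 25.9 to 32.6 between the same shares. Whether these transcripts lie in the glial cell or in neuronal processes beside it was not tested.

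No gene of the 7 changed between 2 and 18 months past the threshold in any of the 8 classes by edgeR, nor by DESeq2. Of all genes tested, 0% were called in MSN-like, GABA neuron-like, other neuron-like and vascular-like cells, where 17, 29, 29 and 32 had an unadjusted p under 0.05 and DESeq2 called 0, 1, 1 and 3. In astrocyte-like cells 3.13% were called, in oligodendrocyte-like cells 3.66%, in OPC-like cells 2.72% and in microglia-like cells 1.32%. Over 109 fits with the classes under all settings tried, no gene of the 7 was called. The lowest adjusted p of the 7 over these fits was 0.0658, in oligodendrocyte-like cells.

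Cplx2 had a positive estimate in all 8 classes. In oligodendrocyte-like cells it was at 70.4, 71.1, 101 and 97.0 (0.51 ± 0.16, edgeR adjusted p = 0.0927) and in astrocyte-like cells at 112, 118, 146 and 149 (0.36 ± 0.12, adjusted p = 0.206). These, and vascular-like cells (0.36 ± 0.16), had an unadjusted p under 0.05. The estimate was 0.36 in GABA neuron-like, 0.31 in other neuron-like (0.33 in their Crym-led cells alone, a setting chosen after seeing the data), 0.24 in microglia-like, 0.18 in OPC-like and 0.12 in MSN-like cells. The last of these was -0.01 without Young replicate 1. Both Aged sections lay above both Young sections in all 8 classes for Cplx2, as they did for 1.83% of the panel, 7 genes in all (with Timp3, Sirt3, Il33, F3, Ezr and Fgf2), which is given as a count with no test. Per cell volume this held for Cplx2 in 0 of the 8 classes, where Aged 1, the shallowest section, had the lowest value in each and Aged 2 lay below Young 1 in 7. Values per volume carry the depth of a section. MSN-like cells of Aged 1 held 5017672 transcripts of all genes in 11801830 µm³, against 11648020 in 15150451 µm³ in Young 1. The share of the panel was not counted per volume, so the 0 of 8 is no finding about Cplx2. Oligodendrocyte-like cells, for example, had 3.26, 2.85, 2.46 and 3.15 per 1000 µm³. The classes of a section share its imaging and its depth, so the 8 classes are not 8 observations.

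**Figure D5:**
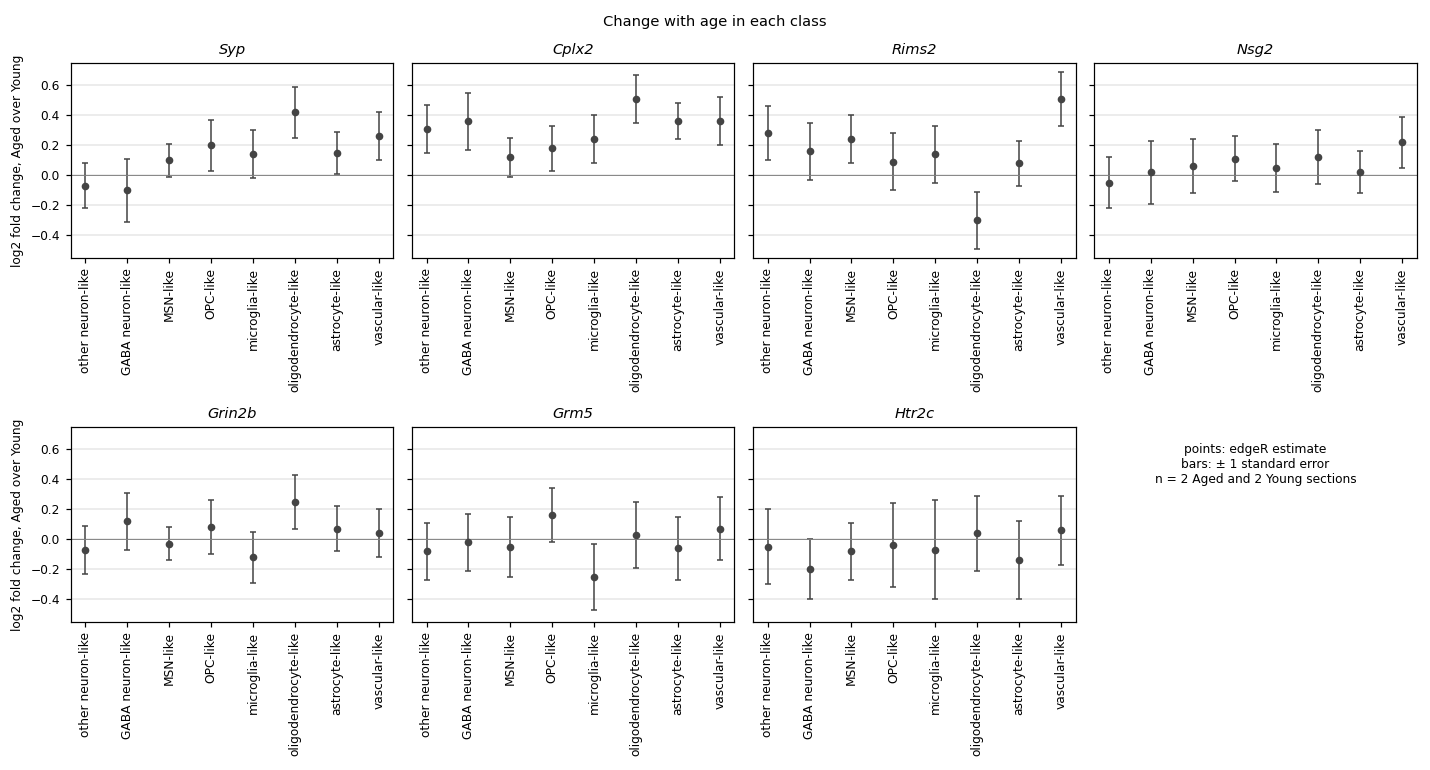
Log2 fold change of Aged over Young sections (vertical axis) with ± 1 standard error from edgeR (n = 2 sections per age) for each gene in the 8 classes (horizontal axis). Cplx2 lies above 0 in all 8 classes, between 0.12 and 0.51. Rims2 lies above 0 in all but oligodendrocyte-like cells, from -0.30 there to 0.51 in vascular-like cells. Nsg2 lies above 0 in all but other neuron-like cells (-0.05), and the remaining genes lie on both sides of 0.

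Among the remaining genes, Rims2 ranged most, with 0.51 ± 0.18 in vascular-like cells (edgeR adjusted p = 0.422) and -0.30 ± 0.19 in oligodendrocyte-like cells (adjusted p = 0.444). Syp had 0.42 ± 0.17 in oligodendrocyte-like cells (edgeR adjusted p = 0.219), from 34.0, 37.7, 47.0 and 46.7, and estimates near 0 in the neuron classes. For the 7 genes as a whole the estimates ran from -0.08 to 0.24 in MSN-like cells, from -0.20 to 0.36 in GABA neuron-like cells and from -0.08 to 0.31 in other neuron-like cells. None of the 30 other synaptic genes was called with age in any class. The age changes did not differ detectably between other neuron-like and MSN-like cells or between dorsal and ventral MSN-like cells. For both tests of the difference edgeR called 0% of all genes, with 41 and 16 genes at an unadjusted p under 0.05 and none called by DESeq2. The lowest adjusted p among the 7 was that of Syp by class (-0.24 ± 0.11, edgeR adjusted p = 0.441). Without Aged replicate 2, Nsg2 passed for the dorsal-ventral difference (-0.30, adjusted p = 0.00233), against -0.12 ± 0.12 with all sections and 0.07 without Aged replicate 1. Such fits leave 1 section in an age group, which is assumed to vary like those of the other.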

How the data were processed

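MERFISH was performed on 4 sections, 2 Young and 2 Aged. Decoding was done by the authors in MERLIN and segmentation in Vizgen software. Each deposited value is a count, the decoded transcripts of one of 383 genes in one cell, as a whole number. The authors also deposited cell positions, cell volumes (an imaging signal in µm³) and a table of mean counts per section (also treated as signal). The means recomputed from the counts differed from that table by at most 4.7e-09. The build behind the probes is not given in the sources used here. The numbers inside the 2 Young tables differ from their titles, and the titles were used.

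Cells were normalized, clustered (15 principal components, 20 neighbours, Louvain resolution 0.08, neurons again at 0.12 and 0.5; igraph 0.11.9) without the 7 genes, and named where at least 3 markers were 1.5-fold above the other cells and 1 was among the 10 leading genes. Subclusters led by oligodendrocyte genes or by Gpr6 stayed unnamed. A cell was mixed if its share of another class's markers reached 0.5 of that class's median. No doublet caller was run. Counts were summed per class and section and tested with edgeR 4.0.16 (R 4.3.3; TMM, filterByExpr, quasi-likelihood, Benjamini-Hochberg over all genes tested, threshold 0.05), with the section as a block in comparisons within sections. The test was checked on simulated data. DESeq2 1.42.0, other scalings, other rules for mixed cells, another resolution, no filter, the replicate block and leaving out each section were tried. Same-numbered Young and Aged sections did not deviate together (correlations of -0.36 to -0.02), so numbers were not used as pairs.

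The 7 genes and all lists were chosen with earlier results of these data known. The named genes are the 7, the 3 most like each, and up to 2 other synaptic genes per direction with the largest called difference. Drd1 and Drd2 were not named where the cells were split by them. The labels do not tie sections to animals, although a legend of the study counts mice, so p-values measure only the spread between these sections. Levels are relative to the panel's transcripts unless given per cell volume.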

Additional observations from a re-analysis of the deposited data

Results flagged for a closer look

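The difference between the dorsal-ventral changes of Drd1-higher and Drd2-higher MSN-like cells passed the test of the difference itself for Htr2c (0.68) and for Rims2 (-0.26), by edgeR over all genes tested. A positive value means a larger ventral excess in the Drd2-higher cells. The call of Rims2 was lost without Young replicate 1 (adjusted p = 0.111) or Aged replicate 2 (adjusted p = 0.178). The comparison was chosen after the levels were seen.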

How the results depend on the processing

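Of 593 single values under other settings, 548 kept their direction and their side of the threshold, 12 lost the call, 16 gained it and 17 changed sign. Of 185 counts of called genes, 141 stayed within 1.5 times and 44 did not. None of the 109 fits with age in the classes called one of the 7 genes.

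Of genes called with age, GABA neuron-like cells had 1 with DESeq2, with Louvain resolution 0.3 and without the Ano1-led subcluster (like all settings that leave out or keep single subclusters, chosen after seeing the data), and other neuron-like cells 1 with DESeq2. Astrocyte-like cells had 23 with mixed cells set by detected markers and 1 at resolution 0.3. Oligodendrocyte-like cells had 8 with library sizes alone, 25 by detected markers and 8 at resolution 0.3. OPC-like cells had 5 with DESeq2 and 5 with mixed cells kept. Microglia-like cells had 8 with library sizes alone, 3 with mixed cells kept, 0 by detected markers and 9 at resolution 0.3. Vascular-like cells had 3 with DESeq2 and 1 by detected markers. With the replicate block the count of OPC-like cells went from 10 to 1, and no other count moved by over 1.5 times. With the crossed replicate block, chosen after seeing the data, 1 gene was called in GABA neuron-like, 7 in other neuron-like, 5 in astrocyte-like and 4 in vascular-like cells. The number of traces above the reference genes was 4 with mixed cells left out, against 2.

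Leaving out each section in turn, which in fits with age assumes that the lone section varies like the other group, gave 0 to 1 calls in MSN-like and in GABA neuron-like, 0 to 3 in other neuron-like, 0 to 17 in astrocyte-like, 6 to 16 in oligodendrocyte-like, 1 to 7 in OPC-like, 1 to 6 in microglia-like and 0 to 12 in vascular-like cells. It gave 0 to 50 for the age by dorsal-ventral difference, 0 to 22 for the age by class difference and 10 to 28 for the zone by Drd group difference. It moved Cplx2 with age in MSN-like cells from -0.01 to 0.24, Nsg2 in the age by dorsal-ventral difference from -0.30 to 0.07, Rims2 in other neuron-like against MSN-like cells from -0.04 to 0.02, Grin2b between zones from -0.02 to 0.02, Grm5 between zones from -0.08 to 0.05 and Nsg2 in the zone by Drd group difference from -0.01 to 0.10.

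Rims2 turned to 0.20 with library sizes alone, 0.32 with cell volume and 0.05 without subclusters led by glial or vascular genes in other neuron-like against MSN-like cells, and to 0.03 and 0.10 with the first 2 of these settings in GABA neuron-like cells. Grin2b between zones turned to -0.07 and -0.03 under the same 2 settings, and Grm5 to 0.01 with mixed cells kept and 0.01 by detected markers. Nsg2 in the zone by Drd group difference turned to -0.03 with library sizes alone and -0.01 with DESeq2. With library sizes alone and cell volume, Rims2 and Grin2b moved by about as much as the median gene of the same comparison. The cause of the other moves was not tested. The 2 sections per age limit what the age comparison can show.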
